A study of Mus musculus with 191 samples.

Results

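The genes described here encode the protein part of the mitochondrial ribosome. They were taken by name: every gene symbol of the array annotation that starts with Mrpl or Mrps and goes on with a digit. Earlier results of these data were known when this family was chosen. The rule gave 70 genes (here MRP genes) with 96 probes out of 10004 annotated genes. Of these, 43 belong by name to the large subunit (Mrpl) and 27 to the small subunit (Mrps). The number in 40 of the symbols follows a protein of the bacterial ribosome, and the other 30 carry the higher numbers given to proteins of mitochondrial ribosomes.

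Mitochondria carry a small genome whose protein-coding genes specify core subunits of the respiratory chain and of ATP synthase. These messages are read by a ribosome of bacterial ancestry that sits in the mitochondrial matrix. Its RNAs come from the mitochondrial genome, whereas all of its proteins are encoded in the nucleus, made in the cytoplasm and imported, so their mRNAs are measured on an ordinary expression array. Liver and brain both depend on the respiratory chain, and liver mitochondria also oxidize the acetaldehyde formed from ethanol.

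RNA came from liver and from micropunches of 3 brain regions, the prefrontal cortex (PFC), the amygdala (AMY) and the nucleus accumbens (NAC), of male C57BL/6J mice aged 10 to 12 weeks, with 1 Illumina MouseRef-8 v2 array for each mouse and tissue. Treated mice inhaled ethanol vapor for 16 h a day over 4 cycles of 4 days (chronic intermittent ethanol, CIE). Between cycles they were left undisturbed for 1 week. Before each exposure they were injected with 1.6 g/kg ethanol and 1 mmol/kg of pyrazole, an inhibitor of alcohol dehydrogenase. Control mice breathed air and were injected with saline and the same dose of pyrazole, so that both groups of every comparison carried the inhibitor. Tissue was taken 0, 8 or 120 h after the last session, in groups of 8 mice, except for liver controls at 0 h with 7. Mouse numbers in the column names recur in all tissues, so results from different tissues are not from separate mice.

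Per array, between 11297 and 12541 probes were detected in liver and between 12953 and 14833 in the brain regions. Treated liver arrays at 0 h reached lower correlations than the rest. Each correlated with the mean of the other arrays of its group at 0.969 to 0.987. The other groups of the series lay between 0.984 and 0.998, so that the ranges overlapped. The liver arrays of mice 1 and 9 were the lowest, at 0.969 and 0.971. Of the markers listed for hepatocytes, 10 of 12 were detected in liver, with a mean log2 intensity of 12.85 to 13.07 in treated livers and 12.80 to 13 in control livers at 0 h. In brain, 7 or 8 of 12 neuronal markers were detected in each region. Array signal comes from bulk tissue, in which fewer cells of a type and less RNA per cell cannot be told apart.

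A probe counted as detected in a tissue when its detection p-value was 0.05 or lower on over 80% of its arrays. This filter left 69 MRP genes each in liver and PFC and 68 each in AMY and NAC, with 67 measured in all 4 tissues. Mrpl57 passed the filter in the brain regions but not in liver, Mrpl15 passed in liver only, and Mrpl39 passed in PFC and liver. Each gene was read from its brightest probe, and a gene was called changed at an adjusted p of 0.05 or lower (limma, Benjamini-Hochberg over all detected probes of the tissue).

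After CIE vapor a large share of MRP transcripts was lower in liver at 0 and 8 h, and none was called at 120 h. At 0 h 23 of 69 MRP genes were lower and 2 were higher in treated livers, against 12.2% lower and 9.55% higher among all genes detected in liver. At 8 h 28 were lower and 1 was higher, against 17.2% and 15.1% of all genes. At 120 h no MRP gene passed and the same held for all genes, 0% in each direction; by unadjusted p of 0.05 or lower there were 2. In the brain the counts were small at every time point. AMY had 1 higher and 1 lower of 68 at 0 h (1.89% and 2.44% of all genes) and 1 higher at 8 h (1.84% higher and 1.47% lower). NAC had 1 higher at 0 h (3.87% higher and 4.29% lower) and 3 higher and 1 lower at 8 h (4.36% and 3.43%). PFC had 1 lower of 69 at 0 h (0.89% higher and 0.799% lower) and 1 higher and 3 lower at 8 h (2.74% and 3.73%). None passed in any brain region at 120 h, where 0% of all genes did, with 4 in AMY, 1 in NAC and 1 in PFC at an unadjusted p of 0.05 or lower. In all, 37 MRP genes passed in liver at 0 or 8 h, 10 in a brain region, 5 of these in both, and 28 nowhere. The share of all genes passing in any of these tests was not set beside them, so these pooled counts only describe the members. Passing in both did not always mean the same direction. Mrps7 and Mrps18a were lower in liver at 8 h (-0.22 and -0.24) and higher in NAC at 8 h, whereas Mrpl48 was lower in both.

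**Figure D1:**
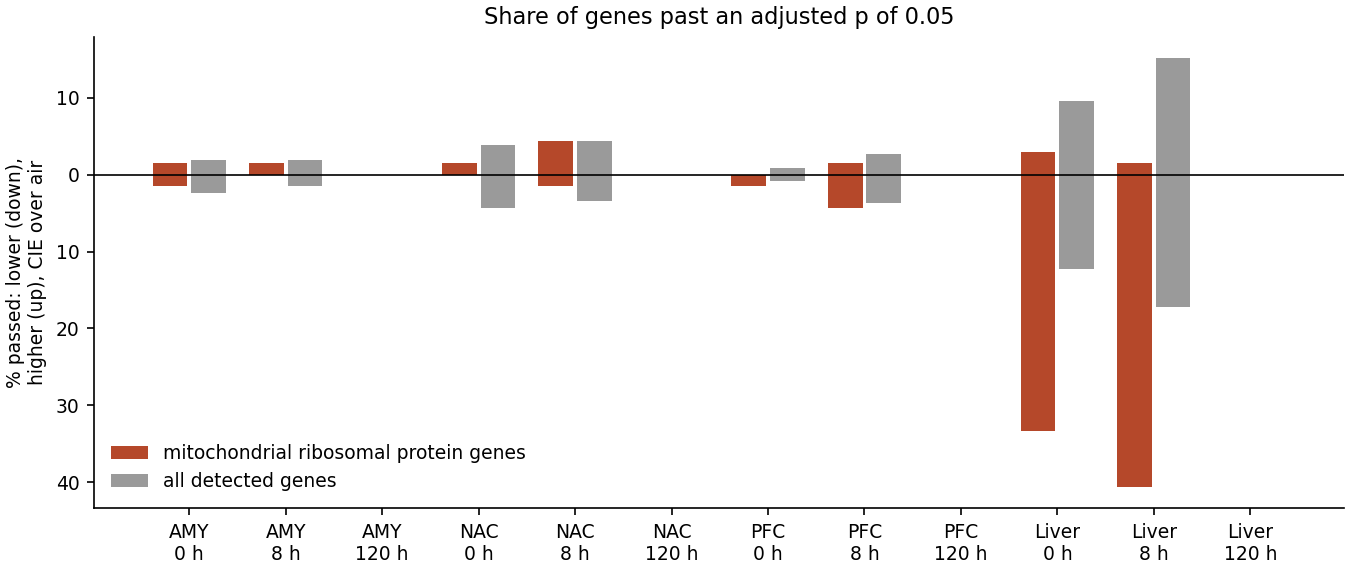
Percent of genes past an adjusted p of 0.05 in treated against control mice (vertical axis; higher in treated mice drawn upwards, lower drawn downwards), for each tissue and time point. Orange bars are the MRP genes and grey bars all detected genes; the downward orange bars in liver reach 33.3% at 0 h and 40.6% at 8 h, beside grey bars of 12.2% and 17.2%, and no bar is drawn where the share is 0.

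The shift in liver was small for most MRP genes. The median log2 fold change was -0.13 at 0 h and -0.12 at 8 h, whereas that of all genes was 0.01 and 0.00. At both times 57 of 69 log2 fold changes were negative (82.6%), against 48.2% of all genes at 0 h and 49% at 8 h. At 0 h the quartiles were -0.21 and -0.03 for the MRP genes and -0.11 and 0.12 for all genes. Per mouse, the median difference of the MRP genes from their control means was -0.19 to -0.07 in the 8 treated livers and -0.03 to 0.05 in the 7 control livers at 0 h, so that the groups did not overlap. At 8 h it was -0.26 to -0.01 in treated livers and -0.06 to 0.08 in control livers, with overlap. At 120 h it was -0.06 to 0.04 in treated livers and -0.05 to 0.04 in control livers. In the brain regions every mouse lay within 0.09 of its control mean.

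**Figure D2:**
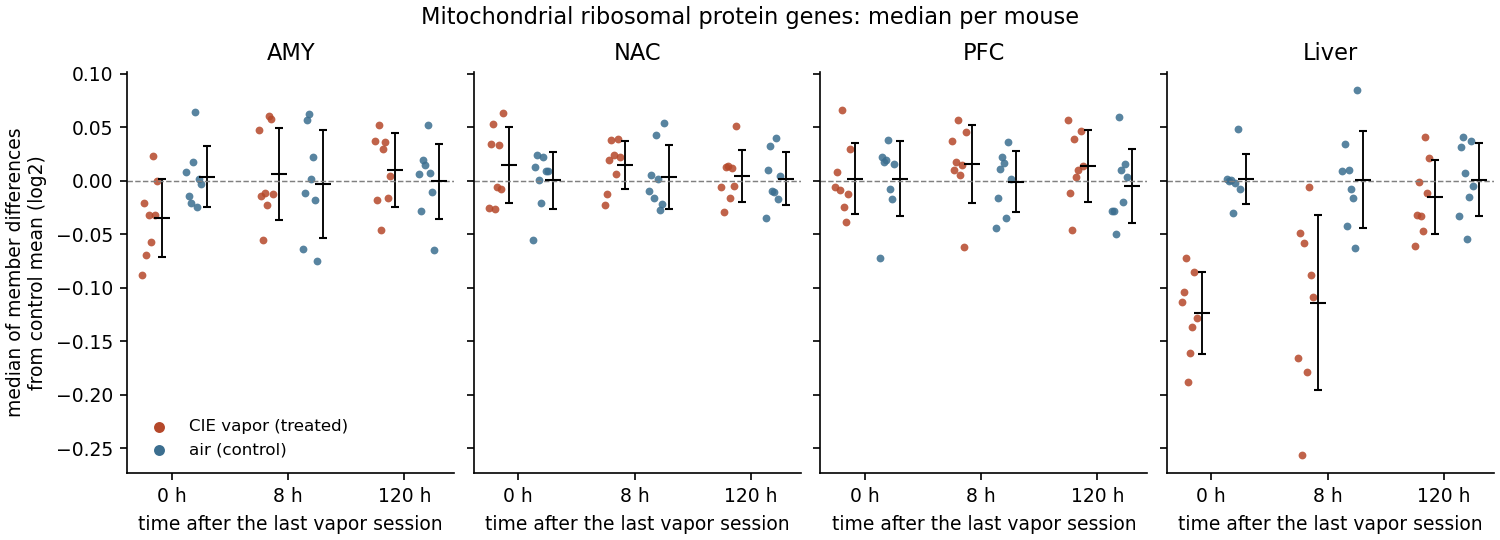
Median over the MRP genes of each mouse's log2 difference from the mean of the control mice of the same tissue and time (vertical axis), by time after the last vapor session (horizontal axis), for AMY, NAC, PFC and liver. Points are mice (treated orange, control blue) and bars the mean ± SD; the 8 treated livers at 0 h lie between -0.19 and -0.07, below all 7 control livers.

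Genes of both subunits, as assigned by symbol, took part. The symbol was not checked against the place of each protein in the ribosome. In liver at 0 h 13 of 42 large-subunit genes were lower and none was higher (median log2 fold change -0.13), while 10 of 27 small-subunit genes were lower and 2 were higher (median -0.12). At 8 h the lower genes were 17 of 42 in the large subunit and 11 of 27 in the small subunit. Of the 40 genes with a bacterial number 13 were lower at 0 h and 17 at 8 h, as were 10 and 11 of the 29 with a higher number. These splits were not tested against each other.

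Among the liver genes at 0 h, Mrps22 had the most negative value. It encodes a small-subunit protein without a bacterial counterpart, which is mutated in a human mitochondrial disease. Treated livers had a log2 intensity of 8.29 (lowest), 8.43 (median) and 8.74 (highest), against 8.71, 9.04 and 9.15 in control livers. All 8 treated livers lay below the control median, and the ranges overlapped only through the lowest control mouse. The log2 fold change was -0.54 ± 0.0749 (SE, n = 8 and 7, adjusted p = 0.000244).

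Mrps28, another small-subunit protein, had 8.45, 8.99 and 9.17 in treated livers, against 9.25, 9.35 and 9.44 in control livers at 0 h. No treated liver reached the control range, and the spread was wider in treated livers (SD 0.24) than in control livers (SD 0.08). The log2 fold change was -0.45 ± 0.0906 (SE, adjusted p = 0.00334).

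Mrpl48, a protein of the central protuberance of the large subunit, gave the narrowest treated group of the named genes. Its log2 intensity was 8.66, 8.72 and 8.81 in treated livers, against 8.99, 9.16 and 9.19 in control livers at 0 h, so that the groups did not overlap. The log2 fold change was -0.38 ± 0.0425 (SE, adjusted p = 5.96e-05). All 3 of its probes passed, at -0.38, -0.36 and -0.31.

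Mrpl22 encodes a protein that lines the tunnel through which the new chain leaves the ribosome. Treated livers had 8.76, 9.08 and 9.21, against 9.32, 9.38 and 9.51 in control livers at 0 h. The groups did not overlap, and the log2 fold change was -0.35 ± 0.0646 (SE, adjusted p = 0.00174). Mrpl53, a large-subunit protein, fell by 0.31 ± 0.0574 on the log2 scale (SE, adjusted p = 0.00188), with 9.71, 9.83 and 10.09 in treated livers and 10.05, 10.18 and 10.27 in control livers.

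Mrpl18 and Mrpl43 had large falls at 0 h with uneven treated groups. Mrpl18, whose bacterial counterpart binds 5S rRNA, had 7.74, 8.35 and 8.57 in treated livers, against 8.52, 8.59 and 8.71 in control livers. Mice 1 and 9, whose liver arrays correlated least with their group, were its lowest treated mice. The log2 fold change of Mrpl18 was -0.39 ± 0.115 (SE, adjusted p = 0.0273), and -0.24 (adjusted p = 0.0455) without the 3 treated arrays of lowest correlation, a set chosen after the values were seen. Leaving out any of 3 single arrays, or dropping the detection filter (adjusted p = 0.0567), ended the Mrpl18 call. Mrpl43 had 8.59, 9.48 and 9.58 in treated livers, against 9.63, 9.69 and 9.81 in control livers, with no overlap. Its log2 fold change was -0.44 ± 0.147 (SE, adjusted p = 0.0483) and lost the threshold when any of 11 of the 15 arrays was left out, with adjusted p up to 0.0882.

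The 2 genes higher at 0 h both encode small-subunit proteins. Mrps26 had 9.09, 9.35 and 9.68 in treated livers, against 8.82, 9.0 and 9.18 in control livers (log2 fold change 0.40 ± 0.102, SE, adjusted p = 0.0131). Its other probe gave 0.16 (adjusted p = 0.318), and the mean of both probes did not pass (adjusted p = 0.0656). Mrps9, which has a bacterial counterpart, had 8.91, 9.07 and 9.19 in treated livers and 8.77, 8.83 and 9.0 in control livers (0.20 ± 0.0472, SE, adjusted p = 0.00816). For both genes all 8 treated livers lay above the control median.

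At 8 h the lowest value was that of Mrpl49, a large-subunit protein of mitochondrial ribosomes. Treated livers had 8.82, 8.93 and 9.18, against 9.21, 9.46 and 9.54 in control livers, with no overlap. The log2 fold change was -0.46 ± 0.0616 (SE, n = 8 and 8, adjusted p = 3.88e-05). Its other 3 probes were dimmer and gave -0.10, -0.08 and -0.08, of which 1 passed (adjusted p = 0.0279), so the size of this fall rests on the brightest probe. At 0 h the same probe gave -0.26, which did not pass (adjusted p = 0.138).

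Next in size at 8 h came Mrpl34, a counterpart of a small basic protein of the bacterial large subunit. It had 8.59, 9.05 and 9.28 in treated livers, against 9.21, 9.37 and 9.48 in control livers (log2 fold change -0.33 ± 0.0849, SE, adjusted p = 0.00765). Mrps22, Mrpl22 and Mrpl18 were again among the largest falls. Mrps22 had 8.56, 8.73 and 8.85 in treated livers and 8.84, 9.02 and 9.23 in control livers (-0.31 ± 0.0627, SE, adjusted p = 0.00152). Mrpl22 had 9.0, 9.12 and 9.40 in treated livers and 9.35, 9.41 and 9.55 in control livers (-0.30 ± 0.0503, SE, adjusted p = 0.000291). For each of these genes every treated liver lay below the control median. Mrpl18 followed at -0.28 (adjusted p = 0.00184), Mrps28 at -0.24 (0.000483), Mrpl53 at -0.23 (0.00169) and Mrpl48 at -0.19 (0.0113).

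Mrpl47, the counterpart of a large-subunit protein near the exit of the tunnel, was the only MRP gene called higher at 8 h. It had 8.66, 8.82 and 9.37 in treated livers, against 8.41, 8.57 and 8.73 in control livers (0.29 ± 0.0786, SE, adjusted p = 0.00931). A lone treated mouse at 9.37 stood above the others, whose highest value was 8.91, and the second, dimmer probe gave 0.07 (adjusted p = 0.363).

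**Figure D3:**
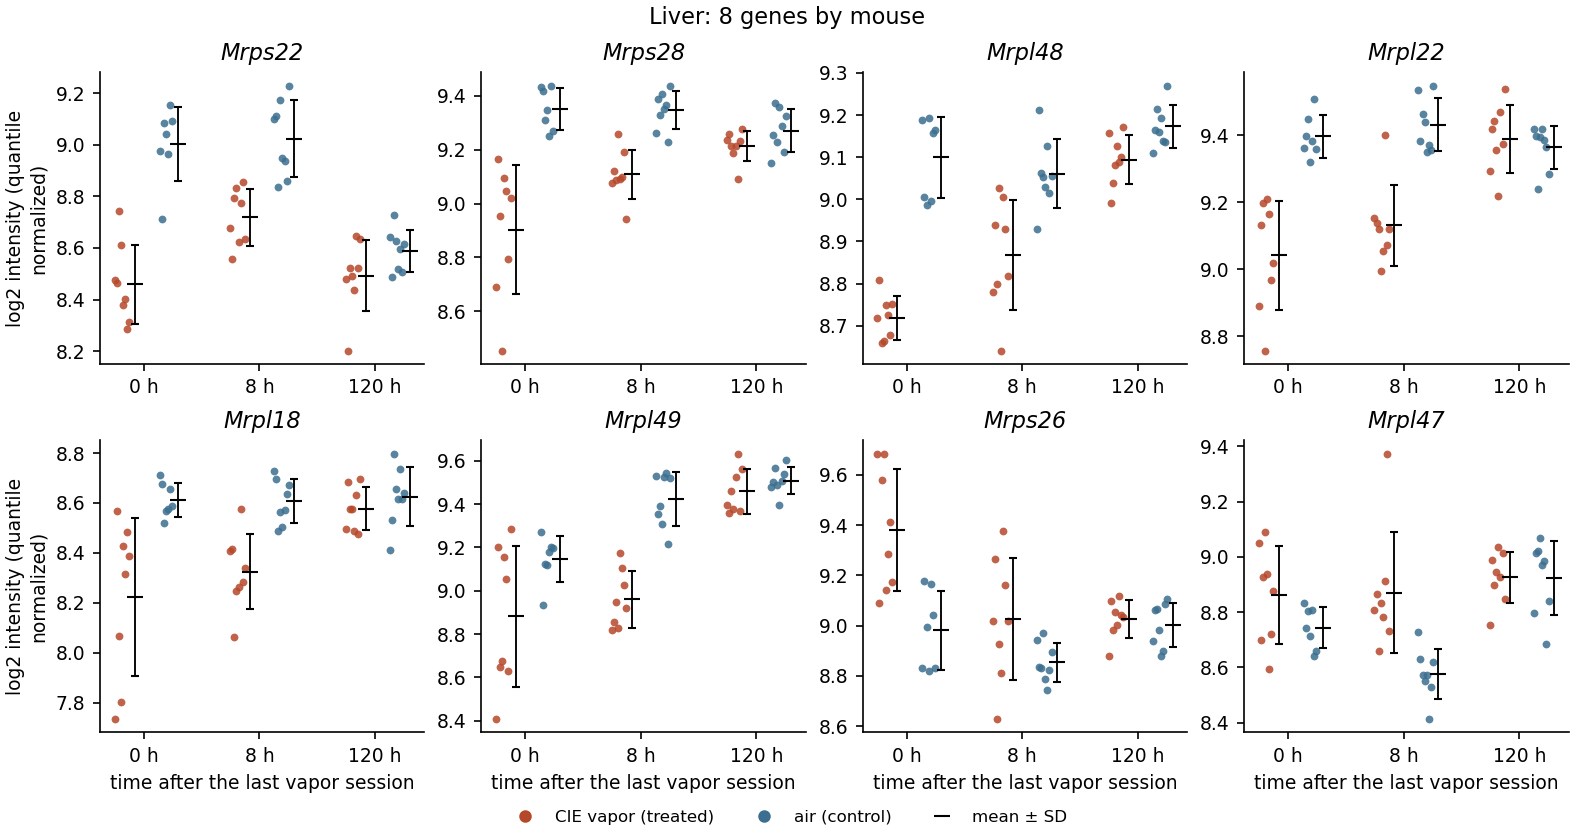
Log2 quantile-normalized intensity (vertical axes, each gene on its own scale) in liver by time after the last vapor session (horizontal axes) for 8 MRP genes. Points are mice (treated orange, control blue) and bars the mean ± SD; at 0 h the treated points of Mrps28, Mrpl48 and Mrpl22 lie wholly below the control points, and at 120 h all 8 genes overlap.

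Complete separation of the groups was uncommon and ran one way. At 0 h 9 MRP genes had every treated liver below every control liver and none had every treated liver above, against 3.4% and 1.99% of all genes. At 8 h the counts were 3 and 0, against 4.56% and 3.12% of all genes, a share no higher than that background.

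In liver 17 of 69 MRP genes were lower at both 0 and 8 h, against 6.96% of all genes, and 32 passed at neither time. The 17 were Mrpl1, Mrpl4, Mrpl18, Mrpl22, Mrpl37, Mrpl40, Mrpl43, Mrpl46, Mrpl48, Mrpl53, Mrps5, Mrps7, Mrps12, Mrps16, Mrps18a, Mrps22 and Mrps28. Their log2 fold changes ran from -0.54 to -0.13 at 0 h, from -0.31 to -0.10 at 8 h and from -0.10 to 0.08 at 120 h. A further 6 passed as lower at 0 h only and 11 at 8 h only, and no gene passed in opposite directions. Treated and control mice of the 2 times are separate animals. Whether the effect changed between the times was tested for each gene with all liver groups in 1 fit, and no MRP gene passed (0 of 69, against 3.19% of all genes with a more positive and 2.09% with a more negative effect at 8 h). The smallest adjusted p was 0.064, for Mrpl48, and 8 genes had an unadjusted p of 0.05 or lower, so passing at 1 time only is not shown to be a difference between the times.

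**Figure D4:**
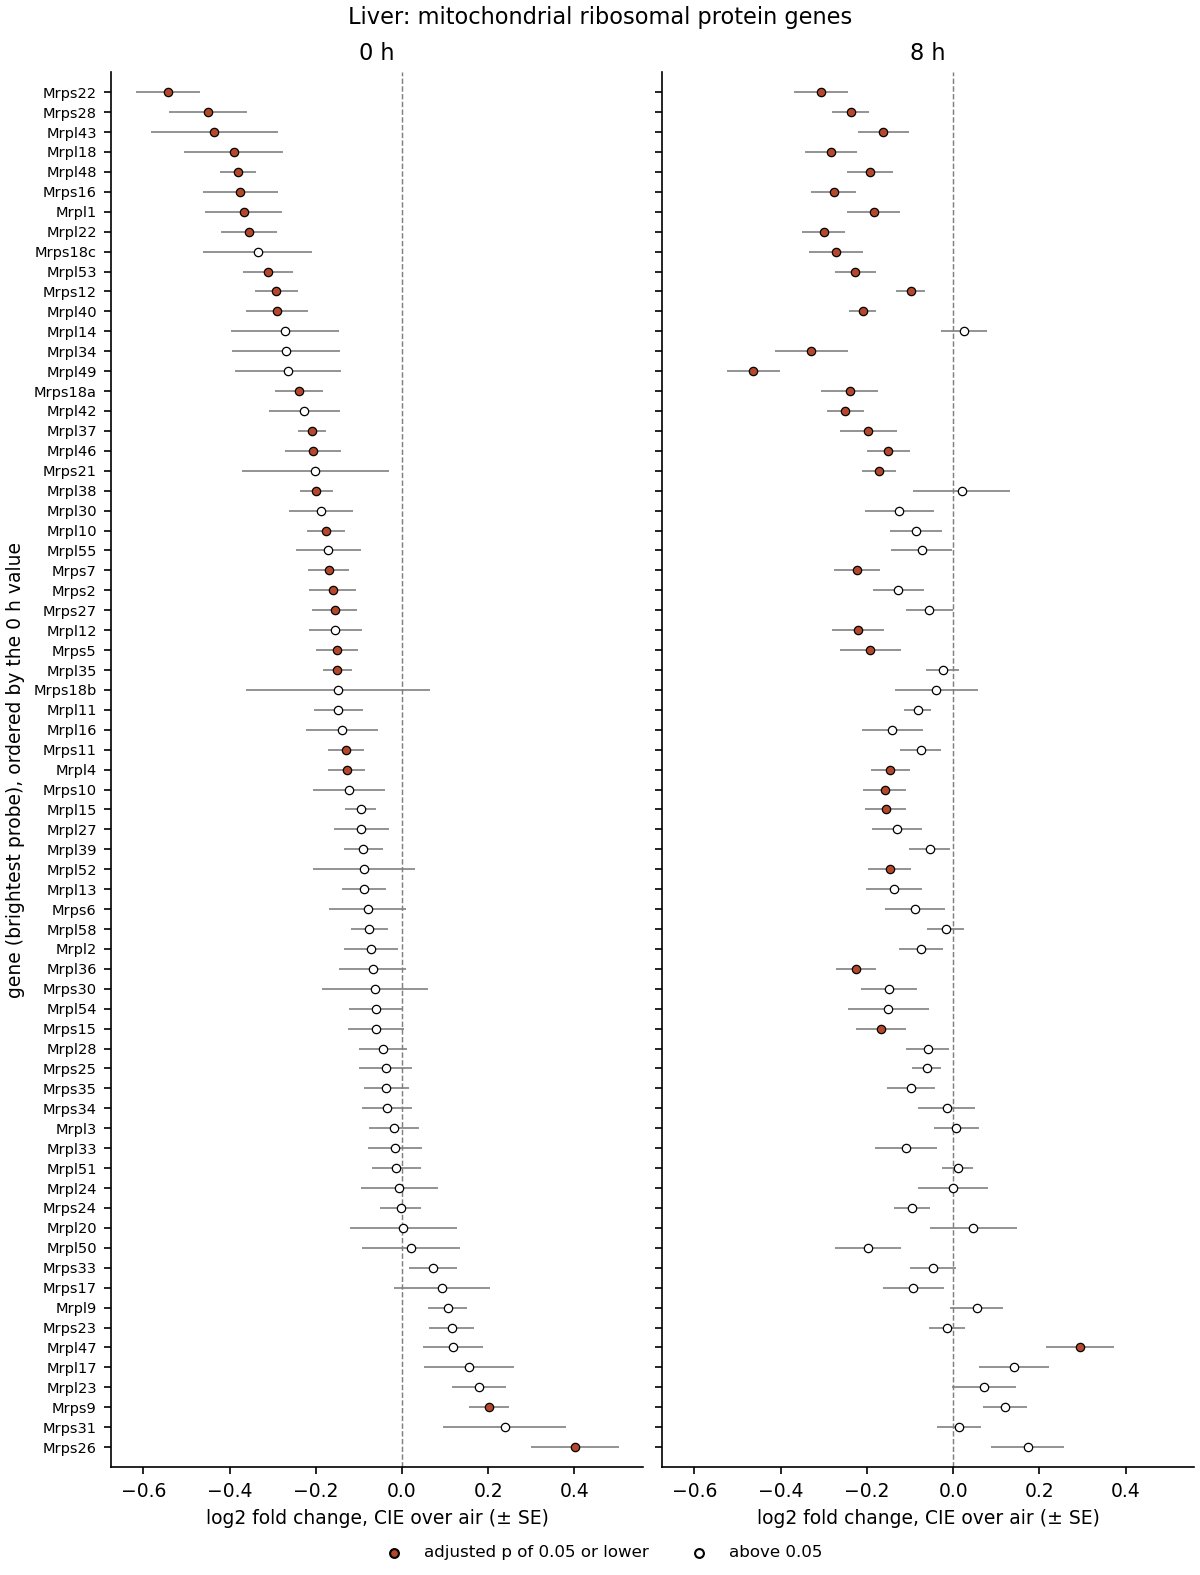
Log2 fold change of treated over control livers (horizontal axes) with its SE for the 69 MRP genes detected in liver, at 0 h (left) and 8 h (right), in the order of the 0 h value (vertical axis). Filled points passed an adjusted p of 0.05; 57 of 69 values lie left of 0 in each panel, from -0.54 (Mrps22, 0 h) to 0.40 (Mrps26, 0 h).

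The genes with several probes gave a second reading. In liver 20 MRP genes had more than 1 detected probe. All probes of a gene had 1 sign for 19 of them at 0 h and for 18 at 8 h, and no gene had probes that passed in opposite directions. Under other normalizations, filters and fits the number of called MRP genes in liver stayed between 17 and 33 at 0 h and between 23 and 32 at 8 h. It was 17 to 28 at 0 h and 21 to 32 at 8 h when single arrays were left out. The genes called lower at 0 h were then 15 to 25, with 15 without the array of control mouse 66 or of control mouse 42. The number called was 19 at 0 h (2 higher, 17 lower) without the 3 treated arrays of lowest correlation, those of mice 1, 9 and 47. The ranges of called genes take higher and lower together. Shares of all genes under the same settings were not set beside these counts, so they do not show a steady excess over all genes.

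Other genes of mitochondrial translation were read from lists chosen for their roles, without a test of the list. Ptcd3, which encodes a small-subunit protein named outside the Mrps series, was lower at 0 h (-0.30, adjusted p = 0.00104) and 8 h (-0.27, adjusted p = 0.000594), and it was the only such gene to pass among the 3 measured. Of 9 translation factors 2 were lower at 0 h and 4 at 8 h with none higher. They included Gfm2, which helps take the ribosome apart after termination, at -0.23 and -0.24, and at 0 h Mtrf1, a release factor, at -0.19. Of 11 mitochondrial tRNA synthetases 3 were lower at 0 h and 1 at 8 h. Of 19 assembly and rRNA factors 2 were higher and 2 lower at 0 h, and 2 higher and 4 lower at 8 h. Of 11 genes of mitochondrial transcription and mRNA handling 2 were lower at 0 h, and 1 was higher and 3 lower at 8 h. Lrpprc, which binds and stabilizes mitochondrial mRNAs, fell by 0.31 at 0 h (adjusted p = 0.031) and by 0.30 at 8 h (adjusted p = 0.000425) on the log2 scale, whereas Tfb2m, a mitochondrial transcription factor, rose at 8 h (0.37, adjusted p = 0.000255).

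Among 7 nuclear regulators of mitochondrial genes, 2 were higher at 0 h. Ppargc1b, a coactivator of mitochondrial biogenesis, was at 0.43 (adjusted p = 0.00386), and Nrf1, a transcription factor with binding sites in many genes of mitochondrial proteins, was at 0.33 (adjusted p = 0.00978). At 8 h Nrf1 was at 0.20 (adjusted p = 0.00519), and Esrra, a nuclear receptor that acts on mitochondrial genes, was the 1 lower regulator (-0.14). Among cytoplasmic ribosomal proteins, 9 of 56 were higher and 2 lower at 0 h (9.55% and 12.2% of all genes), and 18 were higher and 2 lower at 8 h (15.1% and 17.2%). Their median log2 fold change was 0.11 at 0 h and 0.12 at 8 h.

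Markers of cell types in liver also moved at these times, and their part in the MRP values was not tested. The 10 detected hepatocyte markers had a median log2 fold change of 0.01 at 0 h, with 2 higher and 2 lower, and of 0.02 at 8 h, with 2 higher and 3 lower. Of 9 detected Kupffer cell markers (13 listed) 5 were higher at 0 h and 6 at 8 h. Their mean log2 intensity was 8.53 to 9.21 in treated livers and 8.00 to 9.06 in control livers at 0 h, and 8.71 to 9.30 in treated livers and 8.17 to 8.96 in control livers at 8 h. Both detected red blood cell markers (8 listed) were lower at both times, with a mean log2 intensity of 7.81 to 9.57 in treated livers and 9.75 to 11.04 in control livers at 0 h, and 7.53 to 9.65 in treated livers and 9.17 to 10.75 in control livers at 8 h. Of 7 detected markers of sinusoidal endothelium none passed at 0 h and 4 were higher at 8 h.

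The promoters of the MRP genes were read for sequence they share. RefSeq promoter sequence (build GRCm38.p6) was found for 62 of the 70 MRP genes, and the 250 bases before the start were searched on both strands for 3 motifs that are often found in promoters of genes for mitochondrial proteins: GCATGCGC (NRF1), CCGGAAGT (ETS family, which includes GABP) and AAGATGGC (YY1). Different motifs can share at most 2 letters at their ends. The NRF1 letters were found in 7 MRP promoters (11.3%), against 4.87% of genes detected in liver and 2.32% of all genes in the table. The ETS letters were found in 9 (14.5%, against 6.34% and 2.93%) and the YY1 letters in 3 (4.84%, against 2.16% and 1.59%). Any of the 3 was found in 19 MRP promoters (30.6%, against 12.8% and 6.58%). Among the 15 genes lower in liver at both times that had a promoter sequence, 5 held a motif (33.3%), a share close to that of all MRP promoters. A match is a description of the letters and no evidence of binding. For 42 of the 62 genes the start of the promoter table was the first base of the gene in the RefSeq gene table, and for 20 it lay inside the gene. The stretches around the match in these 5 genes are shown 5′ to 3′ on the strand of the gene, with the motif in capitals.
Mrpl18 (chr17:12916304-12916341, minus strand): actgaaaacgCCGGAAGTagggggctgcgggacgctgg
Mrpl22 (chr11:58171611-58171658, plus strand): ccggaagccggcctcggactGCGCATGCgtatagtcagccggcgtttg
Mrpl43 (chr19:45006443-45006474, minus strand): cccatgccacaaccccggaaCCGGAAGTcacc
Mrps12 (chr7:28741993-28742040, minus strand): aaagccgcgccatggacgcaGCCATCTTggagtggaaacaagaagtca
Mrps22 (chr9:98601680-98601710, minus strand): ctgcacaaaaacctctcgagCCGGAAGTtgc
The ETS match of Mrpl43 lies 12 bases and that of Mrps22 lies 11 bases before the start, whereas that of Mrpl18 lies 240 bases before it. In Mrpl22 (NRF1) and Mrps12 (YY1) the motif stands on the opposite strand, 33 and 199 bases before the start. The starts used for Mrpl18 and Mrpl22 lay 1696 and 1621 bases inside the genes, so that their stretches precede another start than the first of the gene.

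In the brain few MRP genes passed. Mrps6 was called higher in NAC at 0 h and lower in PFC at 8 h. It encodes the counterpart of a bacterial protein of the small-subunit platform. In NAC at 0 h it had 9.18, 9.25 and 9.40 in treated mice, against 8.83, 9.09 and 9.15 in control mice, with no overlap (log2 fold change 0.21 ± 0.0437, SE, adjusted p = 0.00926). Every treated array above every control array was seen for 0.252% of all genes in that comparison. In AMY and PFC at 0 h the values were 0.12 (adjusted p = 0.101) and 0.09 (adjusted p = 0.338), which did not pass.

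In PFC at 8 h Mrps6 had 8.94, 9.16 and 9.25 in treated mice, against 9.24, 9.30 and 9.40 in control mice (log2 fold change -0.18 ± 0.0403, SE, adjusted p = 0.0155), and all 8 treated mice lay below the control median. In NAC and AMY at 8 h the values were -0.02 and -0.02. The effect at 8 h minus that at 0 h was -0.27 in PFC (adjusted p = 0.00953), -0.23 in NAC (adjusted p = 0.0234) and -0.14 in AMY (adjusted p = 0.235). The control mice that these differences share were themselves higher at 8 h than at 0 h, by 0.25 in NAC (adjusted p = 0.00157) and 0.17 in PFC (adjusted p = 0.0241).

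The same contrast passed for 2 other genes in all, Mrpl34 in NAC (-0.22, adjusted p = 0.0319) and Mrpl9 in PFC (-0.22, adjusted p = 0.0422), both counterparts of bacterial large-subunit proteins. This made 2 of 68 genes more negative at 8 h in NAC (1.18% of all genes, with 1.58% more positive). In PFC it made 2 of 69 (2.56%, with 1.8% more positive). In AMY 0 of 68 passed, where 0.344% of all genes were more negative and 0.263% more positive. There 5 MRP genes had an unadjusted p of 0.05 or lower, without the share of all genes beside them. With the authors' processed values the Mrps6 difference in NAC missed the threshold (adjusted p = 0.0502), as did Mrpl34 without the detection filter (0.0563) and Mrpl9 under 3 alternatives (up to 0.0786). Control mice were themselves higher for Mrpl34 in NAC at 8 h than at 0 h.

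Mrpl57, a large-subunit protein of mitochondrial ribosomes, was lower at 0 h in 2 regions. In AMY treated mice had 6.89, 7.00 and 7.04, against 6.95, 7.19 and 7.24 in control mice (log2 fold change -0.19 ± 0.0389, SE, adjusted p = 0.0117). In PFC treated mice had 7.02, 7.08 and 7.19, against 7.04, 7.30 and 7.39 in control mice (-0.18 ± 0.0444, SE, adjusted p = 0.0453), and this call was lost under 4 alternatives, with adjusted p up to 0.066. In NAC the value was -0.12 (adjusted p = 0.136). All treated mice lay below the control median in each region, and the lowest control array in each was that of mouse 18. At 8 h the values were -0.04 in AMY, -0.07 in NAC and -0.03 in PFC.

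Mrpl17, the counterpart of a bacterial large-subunit protein, was higher at 8 h in 2 regions. Treated mice had 9.72, 9.83 and 9.92 in NAC, against 9.63, 9.71 and 9.79 in control mice (log2 fold change 0.13 ± 0.0319, SE, adjusted p = 0.018). In PFC they had 9.94, 10.03 and 10.12, against 9.80, 9.89 and 10.00 in control mice (0.14 ± 0.0347, SE, adjusted p = 0.0217). In AMY the value was 0.11 (adjusted p = 0.215). In all 3 regions 8 of 8 treated mice lay above the control median, and the calls in NAC and PFC were lost after background correction (adjusted p = 0.0566 and 0.0649).

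**Figure D5:**
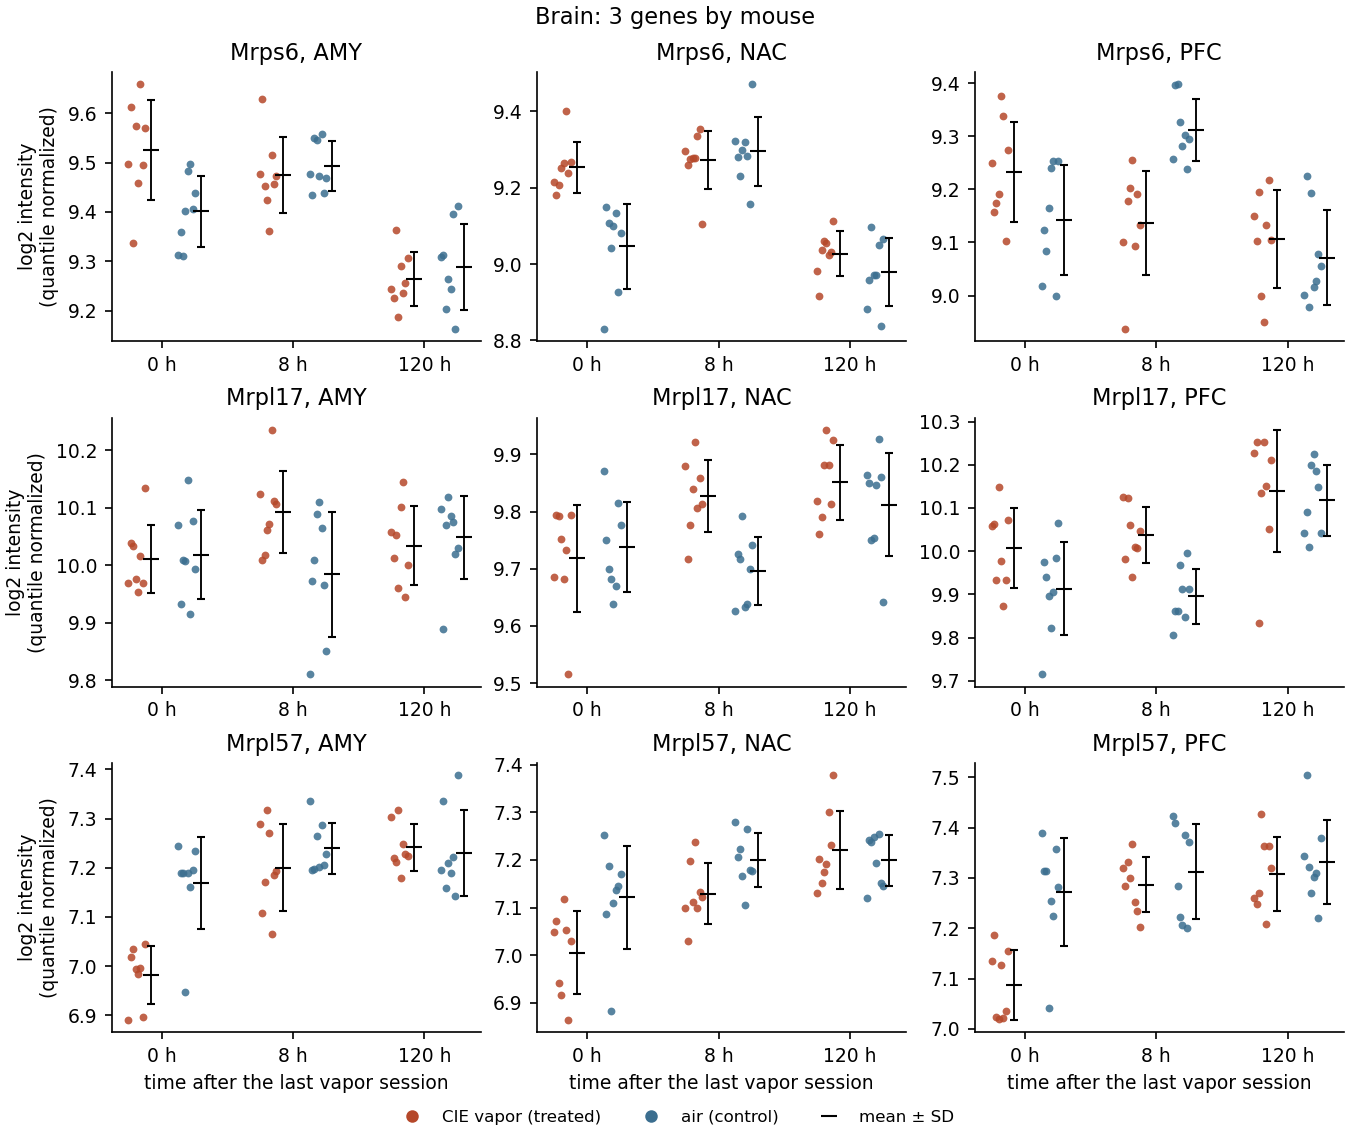
Log2 quantile-normalized intensity (vertical axes, each panel on its own scale, each region normalized on its own) of Mrps6, Mrpl17 and Mrpl57 by time after the last vapor session (horizontal axes) in AMY, NAC and PFC. Points are mice (treated orange, control blue) and bars the mean ± SD; for Mrps6 in NAC at 0 h all 8 treated points lie above the control points.

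The remaining brain calls were singular and near the threshold. At 0 h Mrpl33 was higher in AMY (0.13, adjusted p = 0.0445). At 8 h Mrps18c was higher in AMY (0.20, adjusted p = 0.0251), with 8.94, 9.08 and 9.23 in treated mice and 8.69, 8.86 and 9.01 in control mice. In NAC Mrps7 (0.11, adjusted p = 0.0486) and Mrps18a (0.10, adjusted p = 0.0198) were higher and Mrpl48 was lower (-0.12, adjusted p = 0.029). In PFC Mrpl49 (-0.15, adjusted p = 0.0319) and Mrps25 (-0.14, adjusted p = 0.0245) were lower. Each of these 7 calls was lost under at least 1 alternative. Cell type markers moved in the brain as well. The shares of all genes called in each region stand with the counts of MRP genes above. Of the 8 red blood cell markers, the 1 detected in AMY and in NAC was lower at 0 and 8 h, and in PFC both detected were lower at 8 h and neither passed at 0 h. Their mean log2 intensity at 0 h was 7.84 to 9.77 in treated mice and 8.81 to 10.80 in control mice in AMY, and 8.08 to 10.15 in treated mice and 8.76 to 11.04 in control mice in NAC. At 8 h it was 8.06 to 10.10 in treated mice and 8.72 to 10.77 in control mice in AMY, 8.27 to 10.04 in treated mice and 9.15 to 11.04 in control mice in NAC, and 7.84 to 9.38 in treated mice and 8.77 to 9.67 in control mice in PFC. In PFC at 0 h 1 of 6 thalamic markers was higher, with a mean level of 8.36 to 8.84 in treated mice and 8.19 to 8.47 in control mice. In AMY at 8 h 3 of 10 microglial markers passed as higher and 1 as lower, and 2 of 8 oligodendrocyte markers were lower. In NAC, of 8 oligodendrocyte markers 3 were lower at 0 h and 3 were higher at 8 h, and of 6 thalamic markers 3 were higher at 0 h. At 8 h, 4 of 10 microglial markers passed as higher and 1 as lower in NAC. The mean log2 intensity of the oligodendrocyte markers was 9.89 to 10.18 in treated mice and 9.86 to 10.43 in control mice at 0 h, and that of the thalamic markers 7.63 to 8.15 in treated mice and 7.56 to 7.73 in control mice. The part of these markers in the brain values was not tested.

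At 120 h the smallest adjusted p of an MRP gene was 0.502 in liver (Mrpl48, -0.08) and at least 0.939 in the brain regions. Mrps22, Mrps28, Mrpl22 and Mrpl53 were at -0.10, -0.06, 0.03 and -0.03 in liver, with overlapping groups. In the brain the lowest unadjusted p belonged to Mrpl11 in AMY (log2 fold change 0.12), Mrpl22 in NAC (-0.10) and Mrps35 in PFC (-0.12).

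Control mice were compared with each other to see how MRP transcripts varied with the time of collection. Over the 3 times 38 of 69 MRP genes passed an F test in liver (55.1%, against 56.8% of all genes), 19 of 69 in PFC (27.5%, against 31.7%), 16 of 68 in NAC (23.5%, against 17.5%) and 12 of 68 in AMY (17.6%, against 22.4%). In liver 7 MRP genes were higher and 7 lower at 8 h than at 0 h (6.57% and 7.27% of all genes). With all 6 groups in 1 fit these were 3 higher and 1 lower. At 120 h against 0 h 11 were higher and 17 lower (23.9% and 22.5%), or 5 higher and 32 lower with arrays scaled to their medians. The shares of all genes belong to the main fit, and none is set beside the counts under the alternative settings.

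The called shifts in control livers between 120 and 0 h reached -0.45 and 0.36 on the log2 scale, beside -0.54 and 0.40 for treated over control livers at 0 h. Mrps18b, one of the 3 mammalian relatives of a bacterial small-subunit protein, had 9.83, 10.00 and 10.20 at 120 h and 10.35, 10.47 and 10.54 at 0 h (log2 fold change -0.45 ± 0.0632, SE, adjusted p = 3.81e-06), with no overlap. Mrps22 had 8.49, 8.61 and 8.73 at 120 h and 8.71, 9.04 and 9.15 at 0 h (-0.41, adjusted p = 1.24e-05). Mrpl17 was at -0.37 (adjusted p = 7.25e-07) with no overlap. In this comparison 6 MRP genes had every array at 120 h below every array at 0 h and 2 had every array above. Among all genes these shares were 8.1% and 7.46%. Mrpl49, Mrpl9 and Mrps31 were higher at 120 h, by 0.36, 0.32 and 0.28. At 8 h against 0 h, Mrps21, Mrpl49 and Mrpl15 were higher in control livers by 0.28, 0.28 and 0.25, and Mrps18b, Mrps9 and Mrpl17 were at -0.30, -0.20 and -0.17. With all 6 groups in 1 fit Mrps21 (adjusted p = 0.119), Mrps18b (0.251) and Mrpl17 (0.236) did not pass. The 0 h and 8 h controls of these contrasts also serve the comparisons with treated mice.

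In control brain the direction depended on region and on scaling. NAC had 9 MRP genes higher and 0 lower at 8 h than at 0 h (6.04% and 5.15% of all genes), led by Mrps6 (0.25), Mrpl34 (0.20) and Mrpl42 (0.19), and 5 higher and 0 lower at 120 h (3.03% and 3%), led by Mrpl52 (0.25), Mrpl54 (0.23) and Mrpl22 (0.23). With arrays scaled to their medians these were 22 and 19 higher. PFC had 2 higher at 8 h (2.5% and 1.5%), Mrps6 (0.17) and Mrpl53 (0.15). At 120 h PFC had 14 higher and 1 lower (13.4% and 11.4%), led by Mrpl52 (0.28), Mrpl55 (0.21) and Mrpl17 (0.21), with Mrpl48 at -0.08. Outlying arrays widened both Mrpl52 differences. In NAC at 0 h mouse 18 was at 8.22, with the nearest array at 8.57. In PFC at 120 h mouse 8 was at 9.47, with the nearest array at 9.25. Median scaling turned the split in PFC to 8 higher and 21 lower at 120 h and to 0 higher and 7 lower at 8 h. No direction of the family can thus be given there. The counts under median scaling in NAC and PFC stand without the shares of all genes under that scaling. AMY had 4 higher and 3 lower at 8 h (6.15% and 4.75%), among them Mrps12 (0.19), Mrps25 (0.15), Mrpl40 (0.15), Mrpl16 (-0.26), Mrps18c (-0.18) and Mrps26 (-0.12), and 1 higher and 3 lower at 120 h (6.97% and 5.61%), Mrpl53 (0.13), Mrpl16 (-0.19), Mrpl13 (-0.12) and Mrps6 (-0.11).

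Across tissues the MRP genes had more signal in liver than in brain for many members. The 95 control arrays were quantile-normalized together for this description, which has no test. Of 67 MRP genes measured in all tissues, 27 had every control liver above every control brain array and 7 had every liver below, against 21.4% and 24.8% of all genes, and 33 overlapped. The median difference of liver minus brain was 0.35 on the log2 scale for MRP genes and -0.03 for all genes. Mrpl14, a large-subunit protein, differed most, with a mean of 10.52 in liver and 8.94, 8.70 and 8.78 in AMY, NAC and PFC. The liver minus brain difference was 1.71 for Mrpl14, 1.27 for Mrps18b and 1.15 for Mrps28. Mrps33, Mrps6 and Mrps25, all of the small subunit, had the lowest differences, at -0.91, -0.90 and -0.86. These differences compare a probe with itself across tissues and say nothing of levels between genes.

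Within groups the MRP genes varied together only weakly. After removal of the group means, the median Pearson's r over all pairs of MRP genes was 0.19 in AMY, 0.14 in PFC, 0.08 in NAC (48 arrays each) and 0.13 in liver (47 arrays), and for all genes it was 0.00 in every tissue. These r values are descriptions, and all pairs share arrays and normalization. The closest pairs were Mrpl17 and Mrps26 (0.84), Mrpl18 and Mrpl43 (0.84) and Mrps18b and Mrps30 (0.81) in liver, Mrpl13 and Mrpl54 (0.73) in AMY, Mrpl46 and Mrps16 (0.67) in PFC, and Mrpl43 and Mrps12 in NAC (0.61) and AMY (0.70).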

How the data were processed

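The authors deposited, for each tissue, an intensity per probe and array that was not normalized and a detection p-value, and a table of processed values on a log2 scale (filtered, variance stabilized, quantile normalized and cleared of outlying values in lumi, per the methods). Probes were named through the platform annotation, in which 13798 probes have 1 symbol and none has several, while 869 probes of the processed values are not listed and stayed unnamed. Intensities were taken to log2 and quantile normalized within each tissue, probes were kept where over 80% of the arrays had a detection p-value at or under 0.05, and limma 3.58.1 (R 4.3.3) gave two-sided tests with Benjamini-Hochberg adjustment over all detected probes. Treated and control mice of 1 tissue and time were fitted alone, control mice of the 3 times together, and the difference of effects with all 6 groups. Nothing in the sources used here ties the replicates to separate cages, and 1 array stands for 1 mouse. Their number limits the precision.

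Named genes are the 5 largest rises and falls among those called in each comparison with treated mice (3 for controls over time), the 2 of smallest p where none was called, the 3 of smallest p for the difference of effects, and Mrpl48, Mrpl22, Mrps28 and Mrpl53, which the study's table of clusters names in liver. That table also names Mrpl57 in AMY, under its older symbol Mrp63, which that list of the rule left out. Members and lists were chosen with earlier results of these data known. The 17 genes lower at both times and the statements on single mice were chosen after their values were seen. The scripts were tested on simulated data. Alternatives were background correction (neqc, offset 16), median scaling, the authors' processed log2 values, no detection filter, a detection p-value of 0.01 or lower on every array, the mean of all probes, leaving out the array least like its group, and all 6 groups in 1 fit. Chosen after seeing the data were the replicate block, single liver arrays left out, and the 3 treated liver arrays of lowest correlation left out.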

Additional observations from a re-analysis of the deposited data

Results flagged for a closer look

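Among the named genes, 130 groups of 7 or 8 mice were searched for an array far from the rest, and 10 (7.69%) held one. Chance alone gives about 1 in 20. The gap to the nearest array, as a share of the group's whole range, was 0.539 for Mrpl11 in treated AMY at 120 h (highest mouse), 0.543 for Mrpl37 in control AMY at 120 h (highest), 0.718 for Mrpl57 in control AMY at 0 h (lowest) and 0.757 for Mrpl52 in control NAC at 0 h (lowest). The low array was that of mouse 18 in the last 2 groups. It was 0.601 for Mrps6 in treated NAC at 0 h (highest) and 0.564 for Mrpl52 in control PFC at 120 h (highest). In liver it was 0.610 for Mrpl22 in treated mice at 8 h (highest), 0.645 for Mrpl47 in treated mice at 8 h (highest), 0.581 for Mrpl15 in control mice at 0 h (highest) and 0.571 for Mrps22 in control mice at 0 h (lowest).

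The effect of CIE vapor differed between 8 and 0 h, by the limma test of that difference, for Mrps6 in PFC (-0.27) and NAC (-0.23), Mrpl34 in NAC (-0.22) and Mrpl9 in PFC (-0.22). Mrpl34 in NAC was at -0.08 at 8 h and 0.13 at 0 h, and Mrpl9 in PFC at -0.09 at 8 h and 0.13 at 0 h, and neither gene passed at either time alone. Control mice themselves were higher at 8 h than at 0 h for Mrps6 in PFC and NAC and for Mrpl34 in NAC. The calls of Mrps6 in NAC, Mrpl34 and Mrpl9 were lost under some alternatives, as given above.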

How the results depend on the processing

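No log2 fold change of a named gene turned its sign past the threshold under any alternative; 900 values kept their side of the threshold, 87 fell short of it and 3 passed it. In treated liver at 0 and 8 h the total counts of called MRP genes stayed within 1.5 times the main ones. Counts elsewhere were small and moved. With all 6 groups in 1 fit, treated AMY at 8 h had 2 (against 1), treated NAC at 0 h 6 (against 1), treated PFC at 0 h 3 (against 1), control liver at 8 h against 0 h 4 (against 14) and control NAC at 120 h 9 (against 5). With the authors' processed values treated NAC at 0 h had 3, treated PFC at 0 h 2 and the liver difference of effects 1 (against 0). After background correction treated AMY at 0 h had 1 (against 2), treated NAC at 8 h 0 (against 4), treated PFC at 8 h 2 (against 4), the PFC difference of effects 1 (against 2) and control AMY at 120 h 2 (against 4). With the mean of all probes treated NAC at 0 h had 3, treated PFC at 8 h 2 and control NAC at 120 h 8. With median scaling treated NAC at 0 h had 2, treated PFC at 0 h 0, the liver difference 1, the PFC difference 1, control AMY at 120 h 2, control NAC 22 at 8 h (against 9) and 19 at 120 h, and control PFC 7 at 8 h (against 2) and 29 at 120 h (against 15). Without the detection filter treated AMY at 0 h had 1, treated PFC at 0 h 0, the NAC and PFC differences 1 each (against 2) and control AMY at 120 h 2. Without the array least like its group treated AMY at 0 h had 1 (without treated mouse 15), treated NAC 3 at 0 h (without control mouse 18) and 2 at 8 h (without control mouse 44), treated PFC at 0 h 0 (without treated mouse 65), control NAC at 120 h 3 (without mice 18, 44 and 72) and control PFC at 8 h 1 (without mice 18, 10 and 16). The cause of these moves was not tested. Counts in this section stand without the shares of all genes under the same settings.

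The r of same-numbered treated and control arrays ran from -0.34 to 0.55, with a median per tissue and time from -0.22 (liver at 120 h) to 0.17 (AMY at 120 h, PFC at 8 h). In AMY at 120 h all 8 were above 0 and 5 were over 0.1. At no tissue and time were all over 0.1, and 0 to 2 treated arrays were closest to their own number. This check cannot tell whether same-numbered samples shared a slide or a batch. For liver controls at 0 h the numbers in titles and descriptions differ, and the title number was used. Only the processed values carry the replicate number. With the replicate number as a block on them, treated NAC at 0 h had 4 called MRP genes (against 3 on the same values without the block), treated PFC at 8 h 7 (against 5), treated AMY at 8 h 0 (against 1), control AMY at 8 h 11 (against 8), the liver difference 1 (against 1) and treated liver 19 at 0 h (against 25) and 25 at 8 h (against 29). With single liver arrays left out the count was 17 to 28 at 0 h and 21 to 32 at 8 h, and that of lower genes at 0 h fell to 15 without control mouse 66 or 42. The effect of leaving out single brain arrays other than these was not run. The slide as a block could not be fitted, since no slide is given in the sources used here. Signal over background limits Mrpl57, Mrpl15 and Mrpl39, which did not pass the detection filter in every tissue.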
